A study of Mus musculus with 12 samples.

Results

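Transcript levels of the proteasome and of the enzymes that attach and remove ubiquitin were followed in 4 mouse embryonic stem (ES) cell lines that differ at Rex1 (gene symbol Zfp42), a zinc finger gene widely used as a marker of undifferentiated ES cells. The members were the gene probes whose name in the array files begins with Psma, Psmb, Psmc, Psmd, Psme, Ube1, Ube2, Uch, Usp or Anapc. The name Anapc10 was excepted. The rule found 76 probes for 58 genes among 20281 gene probes that carried 7137 gene symbols. These were 6 genes of the 20S alpha rings, 6 constitutive 20S beta subunits, 2 immunoproteasome beta subunits and 5 ATPases of the 19S cap. Another 10 genes had Psmd names, most of them other subunits of the cap, and there were 2 E1 and 10 E2 enzymes. A further 3 genes were filed under Uch names, 12 under Usp names and 1 as a subunit of the anaphase-promoting complex (APC/C). The remaining gene, Psmc3ip, encodes a meiotic recombination factor and entered through its name alone. No Psme probe and no Psmb9 probe met the rule.

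The proteasome is the barrel-shaped protease that degrades proteins marked with ubiquitin. Its 20S core is built of alpha rings that gate the entrance and beta rings that hold the cutting sites, and the 19S cap recognises ubiquitin, unfolds the substrate with ATPases and feeds it in. E1 enzymes activate ubiquitin, E2 enzymes carry it to ligases such as the APC/C, and deubiquitinases of the UCH and USP families remove it. Interferon induces an alternative set of cutting subunits, in which Psmb8 takes the place of Psmb5, Psmb9 that of Psmb6 and Psmb10 that of Psmb7, and this immunoproteasome makes peptides for MHC class I.

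Gene expression was measured on 12 Agilent arrays of the 22K NIA mouse design, 3 for each line, with the line's RNA labelled with Cy3 and a universal mouse reference RNA labelled with Cy5 on every array and no exchange of dyes. EB5 is the wild-type line (Rex1+/+), derived from E14tg2a. RKPG9 is heterozygous (Rex1+/-): a pacEGFP cassette replaced the start of the open reading frame of one allele. HP3 and HP4 are homozygous knockouts (Rex1-/-) obtained from the heterozygous cells, and each line is 1 clone, so a difference between lines holds clone as well as genotype. All lines were grown without feeder cells on gelatin in medium with fetal calf serum and LIF, and RKPG9, HP3 and HP4 all carry the pacEGFP cassette. Nothing in the labels ties the 3 arrays of a line to separate cultures. The p-values therefore rest on the spread among arrays, part or all of which may be technical. A level below is the log2 ratio of the line over the reference, and a difference is log2, with its standard error (SE) from a limma fit of all 12 arrays and a Benjamini-Hochberg adjusted p over all probes. "Rose" and "fell" are used where that adjusted p was below 0.05.

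Between 85.3% and 94.5% of gene probes stood well above background in Cy3 and between 92.2% and 99.2% in Cy5, and arrays of the same line correlated at r = 0.9805 or higher across probes. The spots of the 3 EB5 arrays had been extracted in another session of the scanner software than those of the other 9 arrays, with a global background adjustment that the others lack. A difference from EB5 and a difference between extraction sessions therefore cannot be told apart, whereas RKPG9, HP3 and HP4 shared 1 session. The Zfp42 probe gave mean levels of 5.98 for EB5, 6.02 for RKPG9, 5.99 for HP3 and 5.44 for HP4. Whether the probe lies inside the deleted stretch is not given in the sources used here, so this level does not check the genotype. Of 10 ES cell markers, 8 were measured, and their mean level was above the reference on every array, between 2.58 and 3.13.

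Of all members, Psmb8 and Psmb10 differed most from EB5 in HP3 and Psmb8 did in RKPG9, while in HP4 Ube2e1 (-0.66), Uchl5 (-0.54), Ube2a (-0.53) and Usp18 (0.49) differed as much or more. Psmb8 was highest in EB5, and fell on the log2 scale by 1.37 in RKPG9, by 0.95 in HP3 and, least, by 0.46 in HP4. Psmb10 fell in all 3 mutant lines as well. Psmb7, which Psmb10 replaces, differed from EB5 by at most 0.22 in size, and Psmb5, which Psmb8 replaces, could not be tested against EB5. In RNA from whole cultures, fewer cells that express a gene and less RNA per cell cannot be told apart.

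The promoters of Psmb8 and of its constitutive counterpart Psmb5 are shown because the 2 subunits occupy the same place in the beta ring while one is inducible by interferon and the other is not. Both windows run from 250 bases before the transcription start to 50 after it in the RefSeq annotation of GRCm38.p6, and are written 5′ to 3′ on the gene's own strand. Psmb8 lies at chr17:34197945-34198244 on the plus strand, and capitals mark the letters of TTCNNNGAA, the pattern known as GAS that STAT factors can bind. Psmb5 lies at chr14:54617946-54618245 on the minus strand, and capitals mark AANATGGC, which resembles the core bound by YY1, the factor from which Rex1 arose.
Psmb8: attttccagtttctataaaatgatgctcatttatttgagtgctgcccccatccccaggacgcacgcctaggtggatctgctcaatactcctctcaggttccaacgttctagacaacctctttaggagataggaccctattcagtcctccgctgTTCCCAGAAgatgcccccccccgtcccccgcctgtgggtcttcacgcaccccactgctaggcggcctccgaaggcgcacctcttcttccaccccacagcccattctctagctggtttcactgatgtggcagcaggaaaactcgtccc
Psmb5: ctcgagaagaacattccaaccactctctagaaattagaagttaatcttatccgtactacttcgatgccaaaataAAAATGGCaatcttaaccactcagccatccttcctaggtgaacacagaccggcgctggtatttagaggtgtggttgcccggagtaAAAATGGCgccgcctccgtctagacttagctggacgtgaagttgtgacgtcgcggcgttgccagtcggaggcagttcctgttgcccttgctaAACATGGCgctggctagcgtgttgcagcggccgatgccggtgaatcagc
The Psmb8 window held GAS at bases -97 to -89, counted with -1 just before the start and 1 as the first transcribed base. The Psmb5 window held 3 copies of AANATGGC, at -176 to -169, -91 to -84 and 2 to 9, and no GAS. Both strands were searched. Of the 58 genes, 45 had a promoter in the RefSeq table. AANATGGC occurred in 9 of them (20%) against 6.96% of all 27025 genes with a promoter, GAS in 4 (8.89%) against 9.55%, the interferon-type pair GAAANNGAA in 4 (8.89%) against 9.76%, and CCAAT in 15 (33.3%) against 41.1%. A match is a stretch of letters and not a binding site. AANATGGC also holds ATG, the letters of a start codon. Most of the genes with AANATGGC had a match after the transcription start. These were Psma2, Psmb5 (2 to 9), Psmb6, Psmc5, Ube2l3 and Usp21, and Uba1 on the other strand. Only in Psma4 and Psmd8 did no match begin after it. In Psmb5 the frame from the ATG of that match runs without a stop codon to the end of the window. Overlap with annotated start codons was not tested.

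Psmb8 encodes the interferon-inducible subunit with chymotrypsin-like activity. Its levels were -2.09, -2.06 and -2.11 on the EB5 arrays, -3.36, -3.55 and -3.46 on those of RKPG9, -2.89, -3.17 and -3.03 on those of HP3, and -2.34, -2.66 and -2.65 on those of HP4. No pair of lines overlapped, and the order from high to low was EB5, HP4, HP3 and RKPG9. Against EB5 the difference was -1.37 ± 0.09 (SE, n = 3 arrays a line) in RKPG9, a 2.58-fold fall (adjusted p = 4.3e-07). It was -0.95 ± 0.09 in HP3 (1.93-fold, adjusted p = 1.49e-05) and -0.46 ± 0.09 in HP4 (1.38-fold, adjusted p = 0.00153). Psmb8 was on the study's own list of lower genes, which was drawn from these arrays, so its direction here is not independent evidence. The HP4 value depended on the background step: without background subtraction it was 0.12, on the other side of 0 (adjusted p = 0.277).

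Among the 3 lines of the same session Psmb8 was lowest in the heterozygous line. It was 0.42 ± 0.09 higher in HP3 than in RKPG9 (adjusted p = 0.00437) and 0.91 ± 0.09 higher in HP4 than in RKPG9 (adjusted p = 1.04e-05). The 4 clones did not stand in the order of their number of intact Rex1 alleles. With 1 clone a line, genotype and clone cannot be told apart, and EB5 also differs in session. HP4 exceeded HP3 by 0.48 ± 0.09 (adjusted p = 0.00242), a difference that missed the threshold with median centring in place of loess (0.14, adjusted p = 0.0972).

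Because each ratio joins 2 dyes, the same comparisons were made in each dye alone. In the Cy3 channel, which holds the line's own RNA, Psmb8 differed from EB5 by -0.85 in RKPG9, -0.58 in HP3 and -0.50 in HP4. The Cy5 reference differed by 0.15, 0.08 and -0.03 in the same order. HP4 still exceeded RKPG9 in Cy3 alone, by 0.35 (adjusted p = 0.00299), and HP3 exceeded RKPG9 by 0.26 (adjusted p = 0.0315). HP4 and HP3 differed by 0.09 there (adjusted p = 0.497). A second probe, without a gene name but described in the files as proteasome beta type 8, passed the threshold in none of the comparisons, with differences from EB5 of -0.03 in HP3, 0.05 in HP4 and 0.04 in RKPG9.

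Psmb10, the inducible subunit with trypsin-like activity, gave levels of -0.42, -0.36 and -0.44 in EB5, -0.83, -0.91 and -0.94 in HP4, -1.06, -1.21 and -1.16 in HP3, and -0.89, -0.98 and -0.94 in RKPG9. EB5 stood above all other arrays, HP3 stood below all others, and RKPG9 and HP4 overlapped. The difference from EB5 was -0.73 ± 0.05 in HP3 (adjusted p = 7.86e-07), -0.53 ± 0.05 in RKPG9 (adjusted p = 4.86e-06) and -0.49 ± 0.05 in HP4 (adjusted p = 1.34e-05). HP3 differed from RKPG9 by -0.20 (adjusted p = 0.00777), and HP4 differed from RKPG9 by 0.04 (adjusted p = 0.507, or -0.32 with adjusted p = 3.73e-05 under median centring). So in the ratio the line with the least Psmb8 was RKPG9 and the line with the least Psmb10 was HP3. The Psmb10 ranking depended on the processing. Under median centring HP4 differed from HP3 by -0.06 (adjusted p = 0.25). In Cy3 alone HP3 differed from RKPG9 by -0.21 (adjusted p = 0.0932) and HP4 from HP3 by 0.16 (adjusted p = 0.178). Neither passed the threshold. In Cy3 alone Psmb10 differed from EB5 by -0.37 in HP3 (adjusted p = 0.0022), -0.21 in HP4 (adjusted p = 0.0293) and -0.16 in RKPG9, which missed the threshold (adjusted p = 0.113), while the Cy5 reference was higher by 0.24, 0.25 and 0.25.

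Psmb5 carries the constitutive chymotrypsin-like site. Its spot had been marked as an outlier on all 3 EB5 arrays and on 2 of RKPG9, so it was not tested against EB5, and its levels in the rest were 0.26 on RKPG9 array 2, 0.34, 0.22 and 0.31 in HP3 and 0.31, 0.24 and 0.17 in HP4. With those spots kept, the difference from EB5 was -0.12 in HP3 (adjusted p = 0.0572), -0.18 in HP4 (adjusted p = 0.00819) and -0.16 in RKPG9 (adjusted p = 0.0162). The authors' processed table gave -0.09 in HP3 (adjusted p = 0.0812), -0.21 in HP4 (adjusted p = 0.00074) and -0.04 in RKPG9, where the call was lost (adjusted p = 0.436).

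Psmb6, with the caspase-like site, had levels of 0.23 and 0.24 on the 2 usable EB5 arrays, 0.12, 0.02 and 0.06 in HP4, 0.08, 0.01 and 0.05 in HP3, and 0.02, -0.06 and -0.07 in RKPG9. Every mutant array lay below EB5, and HP3 overlapped both RKPG9 and HP4, which did not overlap each other. It fell by 0.27 in RKPG9 (adjusted p = 0.00062) and by 0.19 in HP3 (adjusted p = 0.00799). In HP4 the difference was -0.16 (adjusted p = 0.0102), a call that ended without EB5 array 3 (-0.16, adjusted p = 0.0515). Cy3 alone gave -0.20 in RKPG9 (adjusted p = 0.0995), -0.20 in HP3 (adjusted p = 0.0996) and -0.17 in HP4 (adjusted p = 0.112). None of these passed the threshold. In that channel Psmb10 differed by -0.16 in RKPG9, -0.37 in HP3 and -0.21 in HP4.

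Psmb7, with the constitutive trypsin-like site, gave 0.86, 0.91 and 0.81 in EB5, 0.82, 0.78 and 0.81 in HP4, 0.67, 0.65 and 0.71 in HP3, and 0.65, 0.65 and 0.61 in RKPG9. HP4 reached the EB5 range and the other lines did not. The difference was -0.22 in RKPG9 (adjusted p = 0.000353), -0.19 in HP3 (adjusted p = 0.00175) and -0.06 in HP4 (adjusted p = 0.179). In Cy3 alone these signs turned, to 0.17, 0.01 and 0.29.

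**Figure D1:**
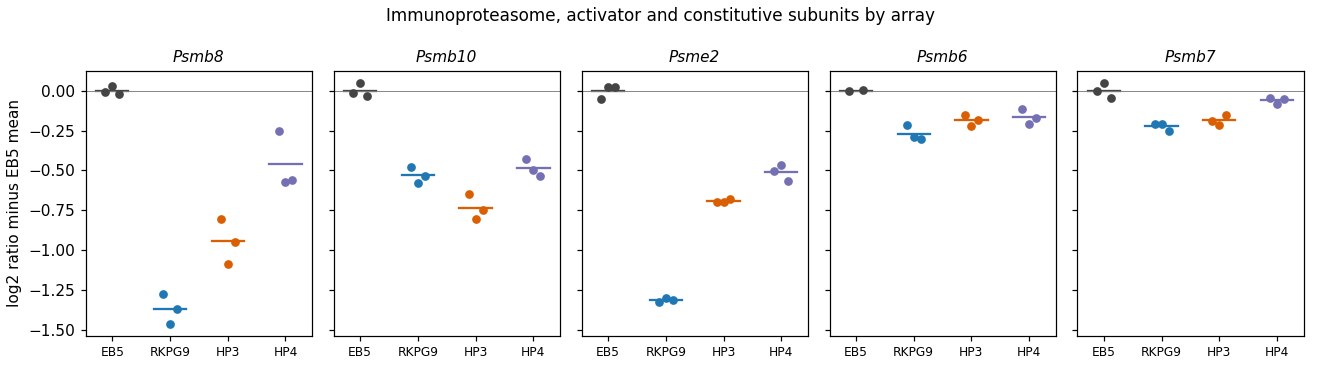
Level of Psmb8, Psmb10, Psme2, Psmb6 and Psmb7 on each array, as log2 ratio of line over reference minus the mean of EB5 (vertical axis), by line. Psmb8 and Psme2 sit lowest in RKPG9, Psmb10 sits lowest in HP3, and the constitutive Psmb6 and Psmb7 reach -0.30 at the lowest. The sign for Psmb7 turns in the Cy3 channel alone and that for Psmb8 in HP4 turns without background subtraction. Median centring puts Psmb10 in HP4 slightly below HP3 (-0.06).

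A proteasome activator behaved like Psmb8. Psme2 encodes the beta subunit of PA28, an interferon-inducible cap that opens the 20S core, and its probe stands in the files under the name PA28B, outside the rule. Its levels were -0.86, -0.78 and -0.78 in EB5, -1.31, -1.27 and -1.37 in HP4, -1.51, -1.51 and -1.48 in HP3, and -2.13, -2.11 and -2.12 in RKPG9. No lines overlapped, and their order was that of Psmb8. The difference from EB5 was -1.31 in RKPG9 (adjusted p = 5.03e-10), -0.69 in HP3 (adjusted p = 1.22e-07) and -0.51 in HP4 (adjusted p = 1.02e-06). HP4 stood 0.80 above RKPG9 (adjusted p = 2.22e-08), and HP3 0.62 above it (adjusted p = 2.04e-07). Cy3 alone gave -1.37, -0.81 and -0.51 against EB5 for RKPG9, HP3 and HP4, and Cy5 gave -0.08, -0.15 and -0.03.

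Other genes that serve antigen processing were counted from lists drawn up by function. Of 11 further genes of MHC class I peptide loading, 8 were tested against EB5: 7 fell in HP3, 5 in HP4 and 6 in RKPG9, where 1 rose (all probes lower 19.1%, 26.4% and 21.6%). Tap1, the peptide transporter whose gene neighbours Psmb8, differed from EB5 by -0.33 in HP3, -0.03 in HP4 and -0.72 in RKPG9. Of 25 interferon signalling and response genes, 12 were measured. In RKPG9 10 fell and in HP3 7 fell, with 0 rising in either line by limma's adjusted or unadjusted p. In HP4 3 rose and 5 fell. The shares of all probes that fell were the same as above, and 18.4% of all probes rose in HP4. Against RKPG9, 8 of the 12 rose in HP4 and 1 fell, where 20.9% of all probes rose and 19.1% fell. Some of these probes were dim. In Cy3, Jak2 was well above background on 1 array of RKPG9, 1 of HP3 and 0 of HP4, and Isg15 on 1, 1 and 2. The list was not examined in Cy3 alone.

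The universal reference and possible other cells bear on these genes, since lymphocytes and macrophages express them strongly. Of 8 haematopoietic markers, 5 were measured. Their mean level was between -1.11 and -1.0 over the EB5 arrays, between -0.90 and -0.79 for HP4, between -1.24 and -1.06 for HP3 and between -1.23 and -1.16 for RKPG9. Between HP3 and RKPG9 limma called 0 of them by the adjusted or the unadjusted p, and 4 rose in HP4 against each of those lines. Of 8 fibroblast markers, 3 were measured (Acta2, Col1a2 and Dcn), with a mean between -3.31 and -2.87 in EB5, -3.36 and -3.10 in HP4, -3.66 and -3.43 in HP3, and -3.71 and -3.62 in RKPG9. All 3 fell in RKPG9 and HP3 against EB5, and all 3 rose in HP4 against RKPG9. The ES cell markers, which stood above the reference, went mostly the other way in HP4. Of the 8 measured, 4 fell and 1 rose against RKPG9 (all probes 19.1% and 20.9%). Against HP3, 5 fell and none rose (all probes 14.7% and 13.7%). The part of these marker differences in the immunoproteasome result was not tested.

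By a plain Pearson correlation with Psmb8 over the 12 arrays, among 8407 named probes, the most like patterns were those of Tpm2 (r = 0.989), Muc3 (0.983), Letm1 (0.982), Dp1 (0.981) and Plk2 (0.98). The 12 points are 4 lines with 3 arrays each, so such values mainly follow the order of the line means.

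The constitutive proteasome and most enzymes lay slightly below EB5 in the ratio. Of 75 member probes tested, 39 fell and 3 rose in HP3 against EB5, where 19.1% of all probes fell and 11.4% rose. In HP4, 42 fell and 7 rose (all probes 26.4% and 18.4%). In RKPG9, 39 fell and 5 rose (all probes 21.6% and 12.5%). The members' share that fell, 52% in HP3, 56% in HP4 and 52% in RKPG9, was above the background each time. The shifts were small: the member median was -0.12 in HP3, -0.13 in HP4 and -0.13 in RKPG9, against -0.02 over all probes in each. Only Psmb8 in RKPG9 fell by over 2-fold, 1 of 75 members against 0.371% of all probes. No member did so in HP3 (all probes 0.183%) or HP4 (0.287%).

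Most of the members' shift in the ratio was missing from the lines' own channel. In Cy3 alone, 7 member probes were lower and 5 higher in HP3 against EB5, 10 lower and 15 higher in HP4, and 5 lower and 11 higher in RKPG9, with medians of -0.02, 0.01 and 0.01. Of all probes in Cy3, 12.2% were lower and 14.2% higher in HP3, 20.9% and 23.9% in HP4, and 12.2% and 13.2% in RKPG9. In the Cy5 channel, which holds the same reference RNA on every array, the member medians were 0.11 in HP3, 0.16 in HP4 and 0.15 in RKPG9 against EB5, and 18, 26 and 18 probes were higher while 1, 2 and 1 were lower. Of all probes in Cy5, 20.3%, 24.4% and 16.4% were higher and 11.3%, 15.9% and 11.4% lower, so the members' count of higher probes in HP3 was near the share of the array. Over all probes the Cy5 medians were 0.03, 0.04 and 0.03. Between lines of the same session the members' Cy5 medians lay between -0.02 and 0.03, and limma called no member (8 at an unadjusted p under 0.05 in HP3 against RKPG9, 11 in HP4 against RKPG9 and 3 in HP4 against HP3). The SE is larger within a channel, with a median of 0.0814 in Cy3 and 0.0858 in Cy5 against 0.0374 in the ratio, so fewer calls follow from that too, while the medians do not depend on it.

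Brightness also went with the fall. Of the member probes tested, 48 were in the brightest 25% of the array, where 39.4% of all probes fell in HP3, 45.7% in HP4 and 43.8% in RKPG9 against EB5. Of those 48 members, 34 (70.8%), 35 (72.9%) and 33 (68.8%) fell. The part of brightness and of the extraction session in the members' shift was not tested beyond these values.

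**Figure D2:**
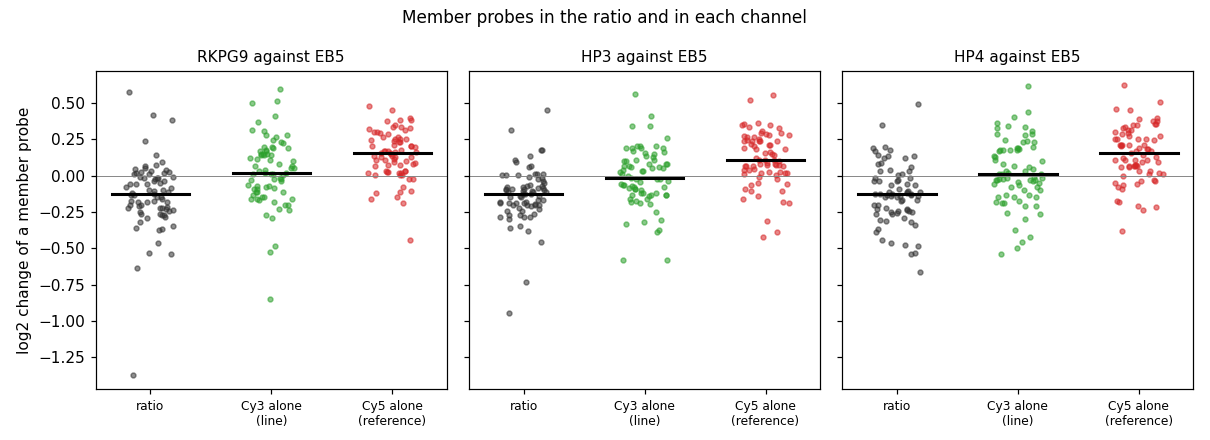
Difference from EB5 (log2, vertical axis) of each member probe in HP3, HP4 and RKPG9, in the ratio, in Cy3 alone (the line) and in Cy5 alone (the reference); points are probes and bars medians. The medians are -0.12, -0.13 and -0.13 in the ratio, between -0.02 and 0.01 in Cy3 and between 0.11 and 0.16 in Cy5, and in Cy3 the sign of the median is kept in HP3 (-0.02) and turned in HP4 and RKPG9.

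By role, with the brightest probe standing for a gene, the ratio's fall against EB5 ran through the core and cap. Of 6 alpha subunits, 6 fell in HP3, 5 in HP4 (where Psma7 rose) and 4 in RKPG9. Of 5 constitutive beta subunits tested, 5 fell in HP3, 2 in HP4 and 4 in RKPG9. Of the 5 ATPases, 4 fell in HP3 and all 5 in HP4 and RKPG9. Of the 10 Psmd genes, 6, 5 and 6 fell in HP3, HP4 and RKPG9. Together these groups are called the constitutive proteasome genes. Over the 26 constitutive proteasome genes tested, 21 fell and 0 rose in HP3, 17 fell and 2 rose in HP4, and 19 fell and 1 rose in RKPG9, with medians of -0.18, -0.14 and -0.18. Of all probes, 19.1%, 26.4% and 21.6% fell, but 24 of the 26 genes stood in the brightest 25% of the array, where 39.4%, 45.7% and 43.8% did. The 0 in HP3 was also 0 at limma's unadjusted p under 0.05. Psmc3, an ATPase, moved furthest of its role in HP4 (-0.48, with -0.35 in HP3 and -0.29 in RKPG9), but by -0.08, -0.08 and -0.11 in Cy3 alone.

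Psma6, an alpha subunit, gave -0.29 in HP3, -0.44 in HP4 and -0.24 in RKPG9 in the ratio, and 0.03, -0.21 (adjusted p = 0.0565) and -0.02 in Cy3 alone. Psma2, also an alpha subunit, gave -0.27, -0.22 and -0.23. Among the ATPases, Psmc2 gave -0.23, -0.32 and -0.18, and Psmc1, with 2 usable EB5 arrays, gave -0.25 in HP4. Psmd8, a subunit of the lid of the cap, gave -0.27, -0.17 and -0.32 in the ratio but 0.04, 0.18 and 0.04 in Cy3 alone, with the sign turned in all 3.

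Among the enzymes, the E2 genes fell more often than the probes of the array. Of all probes, 19.1% were lower in HP3, 26.4% in HP4 and 21.6% in RKPG9. Of 10 E2 genes, 7 fell and 1 rose in HP3, 6 fell and 1 rose in HP4, and 8 fell and 0 rose in RKPG9. All of them but Ube2h stood in the brightest part of the array, as most constitutive proteasome genes did. In that part 39.4% of all probes fell in HP3, 45.7% in HP4 and 43.8% in RKPG9. Against these shares the E2 excess was smaller, least so clear for the 6 of 10 in HP4. The part of brightness in the E2 counts was not tested. Of 12 Usp genes, 2 fell and 0 rose in HP3, 5 fell and 1 rose in HP4, and 2 fell and 2 rose in RKPG9. The 5 in HP4 were near the share of named genes by their brightest probe. Of those, between 33.3% and 43.5% fell in HP4, depending on the chromosome. Both counts of 0 were 0 at limma's unadjusted p under 0.05 as well. Uba1, the main E1 of ubiquitin, fell in HP4 by 0.29 in the ratio (0.01 in Cy3 alone, on the other side of 0) and differed by -0.05 in HP3 and -0.02 in RKPG9. Uba3, the catalytic subunit of the E1 for the ubiquitin-like protein NEDD8, fell in HP4 by 0.20 (0.19 in Cy3 alone, with the sign turned). Anapc5, the APC/C subunit among the members, gave -0.27 in HP3, -0.31 in HP4 and -0.27 in RKPG9. Psmc3ip fell in HP4 by 0.26, with 0.01 in Cy3 alone.

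A few enzymes fell in Cy3 as well. Ube2a, an E2 that marks histone H2B, had levels of 1.5, 1.57 and 1.56 in EB5, 1.02, 0.99 and 1.02 in HP4, 1.06, 1.08 and 1.12 in HP3, and 1.19, 1.19 and 1.17 in RKPG9. EB5 was highest and no mutant array reached it. The difference was -0.46 in HP3, -0.53 in HP4 and -0.36 in RKPG9, and in Cy3 alone -0.58, -0.46 and -0.27, the last short of the threshold (adjusted p = 0.109). A second Ube2a probe gave smaller differences, of -0.19, -0.15 and -0.08.

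Ube2e1, another E2, had levels of -0.93, -0.81 and -0.79 in EB5, -1.55, -1.47 and -1.51 in HP4, -1.24, -1.22 and -1.22 in HP3, and -1.53, -1.46 and -1.45 in RKPG9. RKPG9 and HP4 overlapped at the bottom and HP3 lay between them and EB5. The difference from EB5 was -0.63 in RKPG9, -0.38 in HP3 and -0.66 in HP4, and in Cy3 alone -0.52, -0.14 (adjusted p = 0.233) and -0.38.

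Uchl5, a deubiquitinase that docks on the 19S cap, had levels of 0.58, 0.59 and 0.62 in EB5, 0.02, 0.08 and 0.06 in HP4, 0.28, 0.32 and 0.33 in HP3, and 0.39, 0.39 and 0.39 in RKPG9. The 4 lines did not overlap, and HP4 was lowest. The difference from EB5 was -0.54 in HP4, -0.28 in HP3 and -0.21 in RKPG9, and HP4 differed from RKPG9 by -0.34 and from HP3 by -0.26. In Cy3 alone HP4 differed by -0.54 from EB5 and by -0.39 from RKPG9. Its relative Uchl3 moved little, with -0.03 in HP3, -0.12 in HP4 and -0.11 in RKPG9 against EB5.

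Between the lines of 1 session the members as a whole did not shift. Of 76 probes, 11 rose and 11 fell in HP3 against RKPG9, where 12.6% of all probes rose and 10.1% fell. In HP4 against RKPG9, 19 rose and 22 fell (all probes 20.9% and 19.1%). In HP4 against HP3, 14 rose and 15 fell (all probes 13.7% and 14.7%). The members' shares lay near those of the array as a whole, and their medians were -0.01, 0.01 and 0.00. Under median centring in place of loess the split moved, to 57 lower and 9 higher in HP4 against RKPG9 and 54 lower and 8 higher in HP4 against HP3. Among the 27 constitutive proteasome genes, 3 rose and 4 fell in HP3 against RKPG9, 8 rose and 6 fell in HP4 against RKPG9, and 7 rose and 3 fell in HP4 against HP3.

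**Figure D3:**
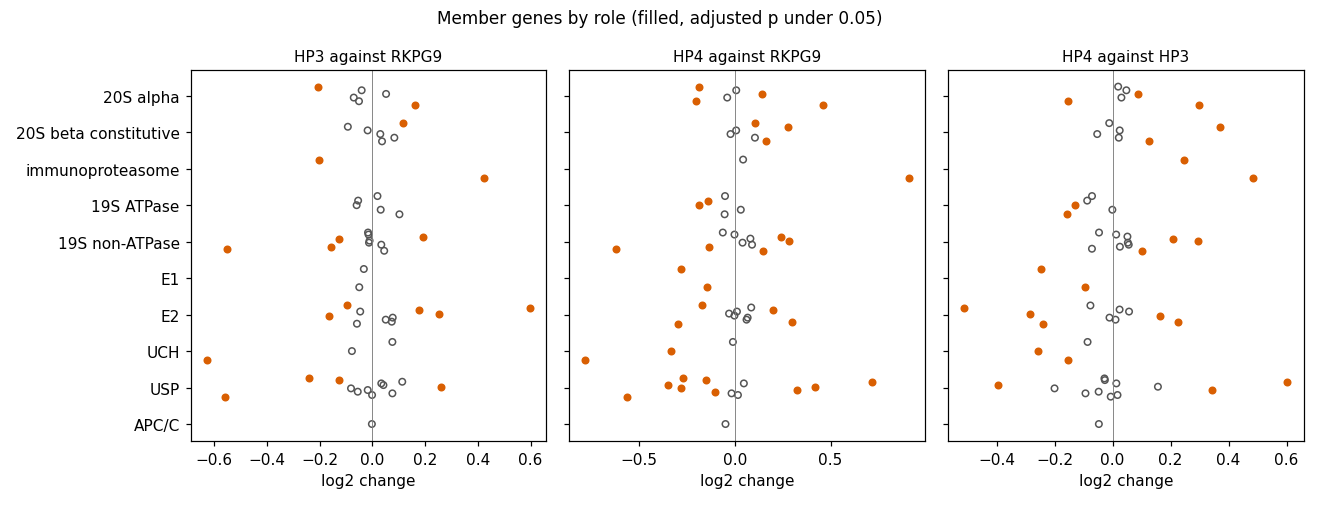
Difference (log2, horizontal axis) of each member gene but Psmc3ip, by role (vertical axis), in the comparisons within 1 extraction session. These are HP3 against RKPG9, HP4 against RKPG9 and HP4 against HP3. Filled points have an adjusted p under 0.05. Member medians lie at -0.01, 0.01 and 0.00, and the points farthest from 0 include Psmb8, Usp10, Usp18 and Psmd7; Usp18 lies at -0.04 in HP4 against RKPG9 in Cy3 alone, and median centring moves most HP4 points below 0.

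Psmd7 and Usp10 stood out in RKPG9. Psmd7 is a cap subunit that pairs with the deubiquitinase of the lid, and its levels were 1.12 and 1.19 on the 2 usable EB5 arrays, 0.92, 0.88 and 0.95 in HP4, 0.97, 0.97 and 1.02 in HP3, and 1.55, 1.54 and 1.53 in RKPG9. RKPG9 was above all other arrays and the homozygous lines were below EB5. RKPG9 exceeded EB5 by 0.39 ± 0.04 (adjusted p = 1.65e-05), while HP3 differed from RKPG9 by -0.55 ± 0.03 (adjusted p = 7.24e-07) and HP4 by -0.62 ± 0.03 (adjusted p = 2.21e-07). Cy3 alone gave 0.59, -0.73 and -0.70.

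Usp10, a deubiquitinase filed as Uchrp, had levels of 1.22, 1.19 and 1.18 in EB5, 0.80, 0.88 and 0.82 in HP4, 0.94, 1.02 and 0.99 in HP3, and 1.56, 1.67 and 1.61 in RKPG9. The lines did not overlap, with RKPG9 highest and HP4 lowest. RKPG9 exceeded EB5 by 0.42 ± 0.04 (adjusted p = 5.31e-06), and HP3 and HP4 differed from RKPG9 by -0.63 (adjusted p = 3.12e-07) and -0.78 (adjusted p = 4.71e-08). Cy3 alone gave 0.51, -0.63 and -0.78.

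Both genes lie on chromosome 8, with Psmb10 and with Zfp42 itself. The 340 tested genes of chromosome 8 had a median of 0.18 in RKPG9 against EB5, while the medians of the other 19 chromosomes lay between -0.11 and -0.04. In HP3 against RKPG9 the median was -0.29 on chromosome 8 and between -0.02 and 0.03 elsewhere, and in HP4 against RKPG9 -0.26 and between -0.02 and 0.04. In Cy3 alone the 3 chromosome 8 medians were 0.30, -0.26 and -0.25. Chromosome copy number was not measured, and its part in these 3 members' values was not tested. Psmb10, on the same chromosome, went the other way in RKPG9 against EB5 (-0.53), but by only -0.16 in Cy3 alone (limma adjusted p = 0.113). Within 1 session it differed from RKPG9 by -0.20 in HP3, the direction of the chromosome, and by 0.04 in HP4. Without the 3 chromosome 8 members, an alternative chosen after seeing the data, 11 rose and 8 fell of 73 in HP3 against RKPG9, and 3 rose and 38 fell of 72 in RKPG9 against EB5.

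**Figure D4:**
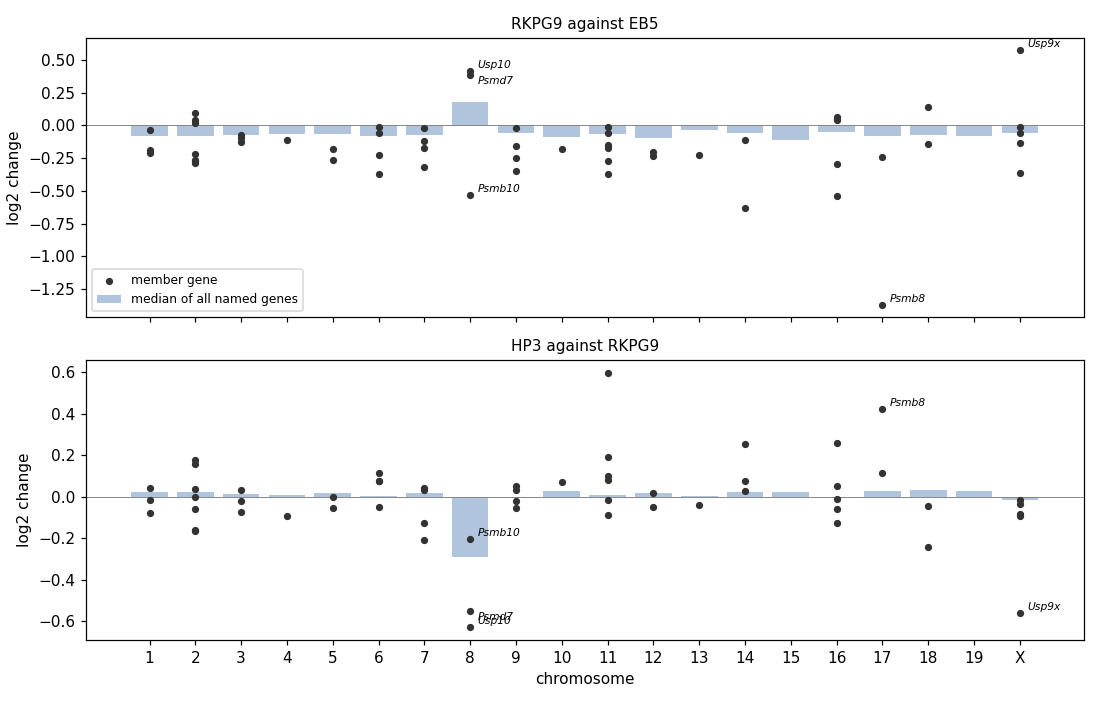
Difference (log2, vertical axis) by chromosome (horizontal axis) in RKPG9 against EB5 and in HP3 against RKPG9; bars are medians of all named genes and points are member genes. Chromosome 8 has a median of 0.18 and then -0.29, apart from the other 19, and Psmd7 and Usp10 lie with it.

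Usp9x, an X-linked deubiquitinase, had levels of 1.11, 1.06 and 0.99 in EB5, 1.02, 1.11 and 1.04 in HP4, 0.98, 1.24 and 0.98 in HP3, and 1.74, 1.59 and 1.55 in RKPG9. RKPG9 was above all others, which overlapped. It exceeded EB5 by 0.57 ± 0.08 (adjusted p = 7.45e-05), HP3 differed from it by -0.56 (adjusted p = 0.000128) and HP4 by -0.57 (adjusted p = 7.62e-05). Cy3 alone gave 0.37, -0.55 and -0.39. The other X-linked members did not share this: Ube2a, Uba1, Psmd10 (2 usable EB5 arrays) and Usp27x differed in RKPG9 from EB5 by -0.36, -0.02, -0.13 and -0.06.

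Ube2b, the close relative of Ube2a, was high in HP3 alone. Its levels were -0.44, -0.35 and -0.34 in EB5, -0.42, -0.46 and -0.44 in HP4, 0.06, 0.08 and 0.07 in HP3, and -0.51, -0.55 and -0.51 in RKPG9. HP3 lay above every other array. It exceeded EB5 by 0.45 ± 0.03 (adjusted p = 2.69e-06) and RKPG9 by 0.60 ± 0.03 (adjusted p = 2.11e-07), and HP4 differed from HP3 by -0.51 (adjusted p = 6.03e-06). A second probe gave 0.31, 0.51 and -0.28. In Cy3 alone HP3 exceeded EB5 by 0.34, HP4 differed from HP3 by -0.38, and the excess over RKPG9 was 0.28 and missed the threshold (adjusted p = 0.0692).

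Psma7, an alpha subunit, was high in HP4. Its levels were 0.31, 0.33 and 0.31 in EB5, 0.51, 0.51 and 0.51 in HP4, 0.23, 0.22 and 0.19 in HP3, and 0.05, 0.07 and 0.04 in RKPG9, with no overlap between lines. HP4 exceeded RKPG9 by 0.46 ± 0.03 (adjusted p = 2.2e-07), HP3 by 0.30 and EB5 by 0.19, though median centring turned these to -0.23, -0.26 and -0.54. Cy3 alone gave 0.44 for HP4 against RKPG9 (adjusted p = 0.00149). A second Psma7 probe gave 0.17, 0.10 and 0.19. A probe without a gene name, described as proteasome alpha type 7, went the other way, with -0.31 in HP4 against RKPG9 (adjusted p = 0.00534) and -0.41 against HP3 (adjusted p = 0.002), but its reference spot was well above background on only 1 of the 12 arrays.

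**Figure D5:**
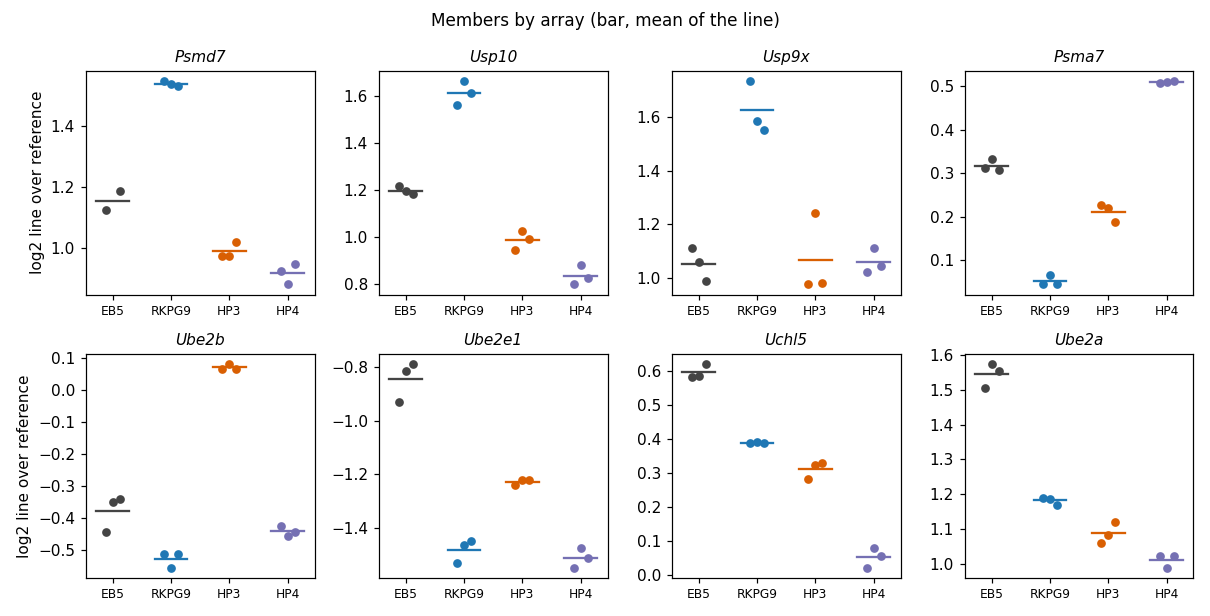
Level (log2 ratio of line over reference, vertical axis, each panel with its own range not starting at 0) of 8 members on each array, by line; bars are means. Psmd7, Usp10 and Usp9x are highest in RKPG9, Ube2b in HP3 and Psma7 in HP4, while Ube2e1, Uchl5 and Ube2a are highest in EB5; the Psma7 direction turns under median centring.

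Other cap and core subunits rose in HP4. Psmd2, a scaffold of the cap base, exceeded EB5 by 0.35, RKPG9 by 0.28 (-0.01 under median centring, on the other side of 0) and HP3 by 0.29. Psmb2, a core beta subunit, exceeded RKPG9 by 0.28 (-0.10 under median centring) and HP3 by 0.37. Ube2n, the E2 of chains that signal rather than degrade, exceeded RKPG9 by 0.30 and HP3 by 0.22 with its brightest probe, which median centring turned to -0.24 and -0.21. The other Ube2n probes gave 0.22 and -0.20 against RKPG9 and so disagreed.

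Usp18, which removes the interferon-induced modifier ISG15, had levels of -2.95, -3.01 and -3.35 in EB5, -2.46, -2.73 and -2.65 in HP4, -3.11, -3.46 and -3.08 in HP3, and -3.34, -3.35 and -3.30 in RKPG9. HP4 was above all other arrays. It exceeded EB5 by 0.49 (adjusted p = 0.00505), RKPG9 by 0.72 (adjusted p = 0.000454) and HP3 by 0.60 (adjusted p = 0.00306). In Cy3 alone HP4 differed from RKPG9 by -0.04 (adjusted p = 0.714) and from EB5 by 0.19 (adjusted p = 0.0497). Usp25, another deubiquitinase, differed from EB5 by -0.54 in RKPG9 and exceeded RKPG9 in HP4 by 0.42 (adjusted p = 0.000354).

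For the remaining Usp genes the within-session differences were smaller. Usp14, which docks on the cap, differed from RKPG9 by -0.24 in HP3 and -0.27 in HP4. Usp21 was not well above background in Cy3 on any of the 3 HP4 arrays, so its lower value there, -0.39 against EB5, is only a bound on the dim side. No member spot was saturated. Where a gene had several probes they did not always agree: the 3 Ube2l3 probes gave 0.37, 0.06 and -0.17 in HP4 against RKPG9, and the 4 Usp3 probes gave 0.33, 0.16, 0.07 and 0.07.

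Genes that serve the same pathway under other names were counted too. Of 6 assembly factors and inhibitors of the proteasome, 4 were measured: 4 fell in RKPG9 against EB5 and 3 rose in HP3 against RKPG9. Of 8 shuttle and p97 genes, 4 were measured, with 2 lower in HP3 and 2 higher in HP4 against EB5. Of 32 proteasome and ubiquitin genes that the files hold under names outside the rule, 11 fell and 3 rose in HP3 against EB5, 12 fell and 7 rose in HP4, and 13 fell and 5 rose in RKPG9, with medians of -0.04, -0.07 and -0.08. All probes gave 19.1%, 26.4% and 21.6% lower and 11.4%, 18.4% and 12.5% higher, so the 7 higher in HP4 were near the array's share. Named genes by their brightest probe fell more often than all probes. By chromosome, between 22.8% and 38.5% of them fell in HP3 and between 33.3% and 43.5% in HP4. In RKPG9 it was between 27.7% and 42.3% outside chromosome 8. The counts of this list that fell were within those ranges. The other lists are too small to set against these shares. Of 5 transcription factors of proteasome genes, 3 were measured, with 2 higher in HP3, 1 lower in HP4, and 2 higher and 1 lower in RKPG9 against EB5. Of 4 ubiquitin genes, 2 were measured, and 1 rose in HP4 and in RKPG9 against EB5. Of 7 further APC/C proteins, 2 were measured, and 1 fell in HP3 and none in HP4, while 1 rose and 1 fell in RKPG9.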

How the data were processed

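Agilent Feature Extraction 7.5.1 scanner files of 12 two-colour arrays were used, 3 for each of 4 lines, grouped by their labels. The authors deposited, per the file headers, linear spot intensity values (mean signal and local background median, per channel), Agilent's processed signals and a log10 ratio of Cy5 over Cy3, and a table of processed values made with the NIA array software. Against the scanner files that table equalled, for 90.97% to 91.19% of probes and within 0.01, minus the deposited log10 ratio plus a constant per probe (column medians 2.868 to 2.88); the origin of the constant is unknown.

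The intensities were background-corrected with limma 3.58.1 (R 4.3.3; normexp, offset 50) and normalised by loess within each array, with control and outlier spots at weight 0. Outlier spots were then left out (1824 gene spots) and spots of a probe averaged. The ratio was turned to Cy3 (line) over Cy5 (reference) on every array; dyes were not exchanged, so a dye effect shared by all arrays cancels between lines only. A linear model with a mean per line was fitted to all 12 arrays and all probes (8 residual and 3.42 prior degrees of freedom, limma's moderated test), and p-values were adjusted by Benjamini-Hochberg over all probes in each of 6 comparisons. The threshold was an adjusted p of 0.05. The pipeline was tested on simulated data. For single channels, the background-corrected intensities were quantile normalised between arrays. Precision is set by how many arrays there are.

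The members, the gene lists and the choice of tests were made with earlier results of these data known. Genes named were the inducible subunits and their counterparts, any member past 2-fold, and up to 3 genes a role with the largest called change in HP3 or HP4 against EB5 or RKPG9. The brightest probe stood for a gene. Ube2n and Usp14, and second probes, were named after their values were seen. Of 76 member names 70 were current and 6 were updated through the RefSeq gene table of GRCm38.p6. Alternatives covered the background step, offset, normalisation, single channel, outlier and dim spots, the authors' table, arrays of 2 lines only, a replicate block and each array left out.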

Additional observations from a re-analysis of the deposited data

Results flagged for a closer look

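Each result here was picked because a gene's differences from EB5 passed the threshold with opposite signs in a pair of lines and the difference between those lines passed it too. Psmd7 differed by -0.55 in HP3 against RKPG9 and by -0.62 in HP4 against RKPG9, being above EB5 in RKPG9 (0.39) and below it in HP3 (-0.17) and HP4 (-0.24). The HP3 part of this was lost without EB5 array 3 (-0.14, adjusted p = 0.0605). Usp10 differed by -0.63 in HP3 against RKPG9 and by -0.78 in HP4 against RKPG9, with 0.42 in RKPG9, -0.21 in HP3 and -0.36 in HP4 against EB5. Both genes are on chromosome 8, whose median was -0.29 in HP3 and -0.26 in HP4 against RKPG9.

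Psma7 differed by 0.30 in HP4 against HP3 and by 0.46 in HP4 against RKPG9, with 0.19 in HP4, -0.11 in HP3 and -0.27 in RKPG9 against EB5, and median centring turned the first 3 of these to -0.26, -0.23 and -0.54. Ube2b differed by 0.60 in HP3 against RKPG9, with 0.45 in HP3 and -0.15 in RKPG9 against EB5. Ube2n differed by 0.22 in HP4 against HP3 and by 0.30 in HP4 against RKPG9, which median centring turned to -0.21 and -0.24. It stood at 0.12 in HP4, -0.11 in HP3 and -0.18 in RKPG9 against EB5, and the HP3 call was lost without EB5 array 1 (-0.10), EB5 array 2 (-0.09), HP3 array 2 (-0.10) or HP3 array 3 (-0.11). Usp14 was flagged by its brightest probe, while a second probe put HP4 (mean level 0.68) above EB5 (0.54) and below RKPG9 (0.78). The brightest probe differed by -0.27 in HP4 against RKPG9, with -0.13 in HP4 and 0.14 in RKPG9 against EB5. The HP4 call was lost without EB5 array 3 or HP4 array 1 (-0.10 each) and the RKPG9 call without EB5 array 1 (0.11) or RKPG9 array 2 (0.13).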

How the results depend on the processing

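In the Cy3 channel alone the number of member probes called fell from 42 to 12 in HP3 against EB5, from 49 to 25 in HP4 against EB5, from 44 to 16 in RKPG9 against EB5, from 22 to 13 in HP3 against RKPG9, from 41 to 20 in HP4 against RKPG9 and from 29 to 3 in HP4 against HP3. Psmb8 in HP4 against HP3 missed the threshold there (0.085) and under median centring (0.14). In Cy3 alone these directions reversed: in HP3 against EB5 Psmb7 (0.012), Psmd8 (0.0403), Psma7 (0.13), Psma6 (0.033) and Uba3 (0.19); in HP4 against EB5 Psmb7 (0.29), Psmd8 (0.18), Uba1 (0.014), Uba3 (0.19) and Psmc3ip (0.0092); in RKPG9 against EB5 Psmb7 (0.17), Psmc1 (0.0149), Psmd8 (0.0408), Ube2b (0.055), Usp18 (0.23) and Ube2n (0.0146); in HP4 against RKPG9 Psmc3 (0.031), Uba3 (0.078) and Usp18 (-0.042); and in HP4 against HP3 Psmc3 (0.0038) and Uba3 (0.0018).

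Median centring, which leaves any dependence on brightness within an array, raised the called members to 66 in HP4 against RKPG9 and 62 in HP4 against HP3. It reversed Psma7 (-0.54), Psmb2 (-0.27), Usp9x (-0.28) and Ube2n (-0.43) in HP4 against EB5. Against RKPG9 it reversed in HP4 Psmb10 (-0.32), Psmb6 (-0.65), Psmb7 (-0.27), Psmd2 (-0.011), Psmd8 (-0.35), Psma7 (-0.23), Psma2 (-0.57), Psmb2 (-0.10), Ube2b (-0.46) and Ube2n (-0.24). Against HP3 it reversed in HP4 Psmb10 (-0.060), Psmb6 (-0.57), Psmb7 (-0.23), Psmd8 (-0.31), Psma7 (-0.26), Psma2 (-0.42) and Ube2n (-0.21). Without background subtraction, Psmb8 (0.12) and Usp9x (-0.17) in HP4 against EB5 and Psmb7 (-0.012) and Psma2 (-0.048) in HP4 against RKPG9 reversed. The cause was not tested.

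Over the named genes, 1731 of 1947 values kept direction and side of the threshold under the alternatives other than leaving out an array, 100 lost the threshold, 70 passed it anew and 46 reversed. With each array left out in turn, 2055 of 2122 values kept both and 0 reversed. Called members then ranged from 35 to 47 in HP3 against EB5, 44 to 50 in HP4 against EB5, 38 to 47 in RKPG9 against EB5, 18 to 24 in HP3 against RKPG9, 38 to 43 in HP4 against RKPG9 and 22 to 29 in HP4 against HP3. Psmb8 ranged from -1.02 to -0.87 in HP3, from -0.57 to -0.41 in HP4 and from -1.42 to -1.32 in RKPG9 against EB5.

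Replicate numbers are shared between lines. The deviations of same-numbered arrays correlated weakly, with both signs (-0.177 to 0.202), though HP3 and HP4 gave 0.202, 0.126 and 0.0859. Differently numbered arrays were not compared, so whether a number stands for a shared batch was not tested. With a replicate block the called members were 44, 50 and 42 in HP3, HP4 and RKPG9 against EB5, 21 in HP3 against RKPG9, 42 in HP4 against RKPG9 and 27 in HP4 against HP3, and 173 of 177 gene values kept direction and side of the threshold.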
